A study of Homo sapiens with 6 samples.

Results

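The genes described here are amyloid precursor protein (APP), its paralogs APLP1 and APLP2, and 6 genes of the proteases that cut them: BACE1, BACE2, PSEN2, NCSTN, APH1A and ADAM10. These 9 members were the rows of the gene tables whose symbol equals a member name, out of 28008 gene symbols, and all 9 were present in both the count and the TPM table. They were chosen by a measured value of these data, the lower count of the abundant APP transcript in the DOX-positive libraries. The DOX-positive to DOX-negative differences of the members are therefore given as descriptions, without p values. Whether a member passed the threshold in the fit over all genes is stated, but nothing is read from it. Transcripts were measured by RNA-seq in NCI-H660 cells, a human neuroendocrine prostate cancer (NEPC) line, transduced with a single tetracycline-inducible shRNA against MUC1 in pLKO-tet-puro and selected in puromycin. DOX-negative cells received 0.1% DMSO as vehicle (n = 3), and DOX-positive cells received doxycycline (DOX) at 500 ng/ml (n = 3), for 7 days per the study's description of the experiment. Both groups carried the shRNA construct, and no library with DOX and a control shRNA was analyzed here, so MUC1 silencing and DOX itself cannot be told apart. Replicates were triplicate cultures of 1 transduced line, and their spread may be in part technical.

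APP is a type I transmembrane protein that is abundant in neurons and is also made by many epithelial and neuroendocrine cells. It is first cut outside the membrane, either by an alpha-secretase, of which ADAM10 is the main constitutive one, or by the beta-secretase BACE1. The membrane stub is then cut by gamma-secretase, a complex of a presenilin such as PSEN2, nicastrin (NCSTN), an APH1 protein and PEN-2 (PSENEN). Cutting by BACE1 and then gamma-secretase releases amyloid-beta, while cutting by an alpha-secretase falls within the amyloid-beta sequence and prevents its release. APLP1 and APLP2 are cut by the same proteases but lack the amyloid-beta sequence.

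Total counts were 47620696 to 74061121 per library. The targeted gene, MUC1, had CPM values (counts scaled to a common library size with TMM factors) of 88.2, 90.2 and 79.6 without DOX and of 36.7, 37.2 and 29.9 with DOX, a log2 fold change of -1.32 (SE 0.096; edgeR quasi-likelihood test, Benjamini-Hochberg adjusted p = 0.00017). All 8 neuroendocrine markers examined were detected, with a summed level of 895 to 1007 CPM in DOX-negative and 799.8 to 889.9 CPM in DOX-positive libraries. Of them, 2 fell, NCAM1 and INSM1 (log2 fold changes -0.50 and -0.45, edgeR, Benjamini-Hochberg adjusted p = 0.0142 and 0.0389). The others did not pass this test. CHGB, ENO2 and SCG3 had higher fitted levels (log2 fold changes 0.29, 0.13 and 0.10), with groups that did not overlap for CHGB. CHGA, SYP and SCG2 had lower ones (-0.20, -0.029 and -0.18), with overlap. The luminal markers KLK2 and KLK3 and the leukocyte and fibroblast markers PTPRC, COL3A1 and DCN had a mean of under 1 count per library. Of the 6 leukocyte and fibroblast markers, 3 were tested and 2 rose, CD68 from 1.12 to 1.92 CPM and COL1A1 from 8.16 to 12.4 CPM. COL1A2 measured 18.1 ± 3.48 CPM in DOX-negative and 11.1 ± 3.77 CPM in DOX-positive libraries, without overlap (log2 fold change -0.71, edgeR, Benjamini-Hochberg adjusted p = 0.203). The summed level of these markers was 24.8 to 30.7 CPM in DOX-negative and 21.8 to 28.0 CPM in DOX-positive libraries. The part of these markers in the results was not tested. In bulk RNA, fewer cells that express a gene and less RNA per cell cannot be told apart.

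The members differed widely in transcript level. Levels of different genes were compared on the TPM scale, which divides counts by gene length. In DOX-negative cells, APLP1 was the most abundant at 107 ± 21.8 TPM (mean ± SD, n = 3), followed by APP at 79.7 ± 11.9, APLP2 at 78.0 ± 13.4, APH1A at 52.9 ± 7.53 and NCSTN at 30.3 ± 5.32. ADAM10 stood at 10.7 ± 1.23 TPM, PSEN2 at 4.07 ± 0.535, BACE1 at 3.87 ± 0.590 and BACE2 at 0.348 ± 0.0846. The highest mean was 307-fold the lowest. Most of this order held in each of the 3 DOX-negative libraries, except that APP was above APLP2 in only 2 of 3 and PSEN2 above BACE1 in only 2 of 3. These neighbours were therefore not separated beyond their spread. The deposited TPM values shared a shift between libraries, as RNAs of non-protein-coding genes took up 75.8 to 83.7% of the TPM total and left a varying remainder, and this shift cancels when genes are compared within a library.

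In DOX-positive cells the order changed at 2 places. APP, at 51.7 ± 10.1 TPM, lay below APLP1 (111 ± 28.7), APLP2 (82.3 ± 15.7) and APH1A (56.4 ± 8.31) in all 3 libraries. BACE1 (4.63 ± 0.687 TPM) had a higher mean than PSEN2 (4.49 ± 0.744), but in only 2 of 3 libraries. NCSTN at 30.0 ± 5.36, ADAM10 at 10.0 ± 3.19 and BACE2 at 0.510 ± 0.0883 TPM kept their ranks.

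**Figure D1:**
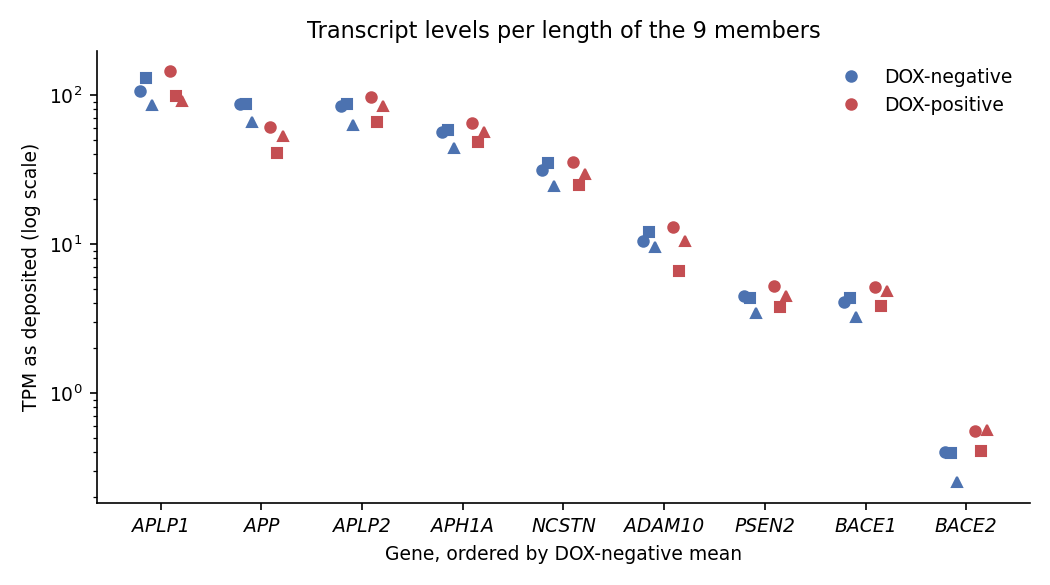
TPM of each member in each library on a log axis, ordered by the DOX-negative mean. Circles, squares and triangles are replicates 1, 2 and 3, with DOX-negative in blue and DOX-positive in red. APLP1 is highest in both groups, at means of 107 and 111 TPM, BACE2 is lowest at 0.348 and 0.510 TPM, and APP drops from the level of APLP2 to below it.

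APP was the member with the largest difference between the groups. It lies on the minus strand of chromosome 21 (chr21:25880550-26171128, GRCh38.p14). APP measured 609.9, 576 and 567 CPM in DOX-negative replicates 1, 2 and 3, and 360.2, 364 and 389.7 CPM in DOX-positive replicates 1, 2 and 3. Every DOX-positive library was far below every DOX-negative library. The mean went from 584 ± 22.7 to 371 ± 16.0 CPM (SD, n = 3 each), a log2 fold change of -0.65 (SE 0.072, 95% interval -0.81 to -0.50) that left 63.6% of the DOX-negative level. These values rest on 20039 to 38974 counts per library. Among all 17026 genes tested, the log2 fold change of APP fell at percentile 2.39 and its mean CPM at percentile 98.7. When TPM was rescaled to sum over protein-coding genes only, APP was at 516, 487 and 500.4 in DOX-negative and 311, 303 and 335 in DOX-positive libraries, again with a wide gap between the groups.

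The paralogs did not share this difference in level. APLP1 (chr19:35868574-35879792) measured 451, 519 and 445 CPM in DOX-negative and 514, 525 and 406 CPM in DOX-positive libraries. Its groups overlapped, and DOX-positive replicate 3 was the lowest of all 6. The log2 fold change of APLP1 was 0.031 (SE 0.10, 95% interval -0.19 to 0.26), and it ran from -0.033 when DOX-positive replicate 2 was left out to 0.14 when replicate 3 was, so its sign rested on single libraries. APLP2 (chr11:130069894-130144805), the most widely expressed of the paralogs, measured 587, 578 and 535 CPM in DOX-negative and 569.9, 582 and 609.9 CPM in DOX-positive libraries. Its groups also overlapped, at a log2 fold change of 0.051 (SE 0.072, 95% interval -0.11 to 0.21).

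Within a library, the makeup of the family moved with APP. APP made up 31.3, 28.6 and 30.8% of the summed TPM of APP, APLP1 and APLP2 in DOX-negative libraries and 20.2, 20.03 and 23.3% in DOX-positive libraries. No library of one group reached the range of the other. The APLP2 share was 30.3, 28.8 and 29.3% in DOX-negative and 32.1, 32.2 and 36.6% in DOX-positive libraries, also without overlap, as a smaller APP share leaves more to the others. The APLP1 share was 40.3 ± 2.14% and 45.2 ± 4.40% and overlapped. The APP to APLP2 ratio of TPM varied little within groups, at 1.03, 0.990 and 1.05 in DOX-negative and 0.628, 0.623 and 0.635 in DOX-positive libraries. Hence about equal levels of APP and APLP2 became a clear excess of APLP2. The APLP1 to APLP2 ratio was 1.37 ± 0.106 and 1.35 ± 0.225, and its groups overlapped.

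**Figure D2:**
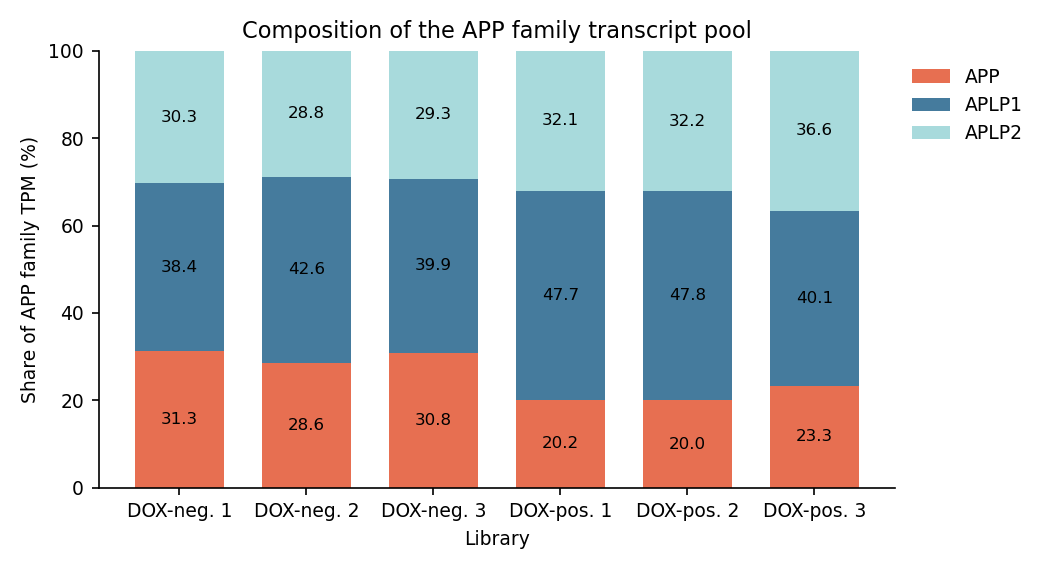
Share of each APP family gene in the summed TPM of APP, APLP1 and APLP2, as stacked bars that reach 100% for each of the 6 libraries. The APP segment is 28.6 to 31.3% in the DOX-negative and 20.03 to 23.3% in the DOX-positive libraries.

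The start regions of the 3 family genes are shown because their transcripts differed in response. RefSeq (GRCh38.p14) windows of 250 bases upstream of an annotated start were searched on both strands for 7 motifs. Of 35116 such windows of all genes, 42.6% held the GC box GGGCGG and 32% held CCAAT. The E-box CACGTG was in 6.34% of them, and a further E-box form, CAGCTG, in 14%. The letters TATAAA of a TATA box were in 10.7%, the AP-1 site TGANTCA in 6.57% and the TEAD site GGAATG in 11.9%. Printed below is each window or its longest stretch outside exons of the GENCODE basic set, 5′ to 3′ on the gene's strand. Any of these motifs is in capitals, on either strand.
APP, chr21:26170788-26170870, minus strand: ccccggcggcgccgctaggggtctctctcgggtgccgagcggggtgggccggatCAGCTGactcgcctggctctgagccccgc
APP, farther start, chr21:26171129-26171378, minus strand: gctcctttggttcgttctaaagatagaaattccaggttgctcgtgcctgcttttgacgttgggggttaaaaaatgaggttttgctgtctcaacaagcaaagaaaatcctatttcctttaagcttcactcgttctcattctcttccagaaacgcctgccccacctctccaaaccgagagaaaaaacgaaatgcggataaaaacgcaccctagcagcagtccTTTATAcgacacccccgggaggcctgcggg
APLP1, chr19:35868324-35868444, plus strand: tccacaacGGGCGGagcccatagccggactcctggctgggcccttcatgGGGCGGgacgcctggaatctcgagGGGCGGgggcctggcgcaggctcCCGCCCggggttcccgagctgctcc
APLP2, chr11:130070318-130070567, plus strand: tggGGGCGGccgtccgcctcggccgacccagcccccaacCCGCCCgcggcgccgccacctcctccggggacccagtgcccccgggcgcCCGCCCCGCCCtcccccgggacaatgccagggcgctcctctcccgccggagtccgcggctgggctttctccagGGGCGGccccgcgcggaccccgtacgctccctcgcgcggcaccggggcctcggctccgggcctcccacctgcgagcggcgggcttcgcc

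The window of the nearer APP start (chr21:26170771-26171020) had a GC content of 78.8%, 34 CpG pairs, 1 CAGCTG and no GGGCGG. It lies inside the span of the gene, which begins on the minus strand at position 26171128, and 83 of its 250 bases are printed. The farther APP start had a window of 47.6% GC with 12 CpG pairs and 1 TATAAA, read on the opposite strand as TTTATA. The APLP1 window held 77.2% GC, 30 CpG pairs and 6 GGGCGG, 4 of them in the printed stretch. That of APLP2 held 82.4% GC, 37 CpG pairs and 5 GGGCGG, of which a pair shares 1 base. The APLP2 window lies upstream of a later annotated start, inside the span of the gene, which begins at position 130069894. The median window had 58% GC and 11 CpG pairs. GGGCGG was also absent from the window of NCSTN, whose log2 fold change was -0.040, and present in those of PSEN2, APH1A and ADAM10. The windows of BACE1, at different annotated starts, differed in whether they held it, and no window of BACE2 was searched. These letters describe the windows, and nothing in the RNA counts measures binding there. Whether any motif goes with the transcript differences was not tested.

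Both beta-secretase transcripts were higher in DOX-positive cells, from low levels. BACE1 (chr11:117285698-117316256), the protease that starts amyloid-beta formation in the brain, measured 43.9, 43.9 and 42.1 CPM in DOX-negative and 46.5, 52.3 and 54.2 CPM in DOX-positive libraries. All DOX-positive values lay above the DOX-negative ones, with a narrow gap at replicate 1. The log2 fold change was 0.24 (SE 0.081, 95% interval 0.058 to 0.41), a 17.7% higher level, and BACE1 was not among the called genes. BACE1 overlaps BACE1-AS and RNF214 in the annotation, and how the counting treated strand is not given in the sources used here. BACE1-AS, its antisense transcript, stood at 5.39 ± 0.644 and 4.63 ± 0.227 CPM with overlapping groups, and RNF214 at 36.9 ± 1.56 and 37.5 ± 0.340 CPM.

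BACE2 (chr21:41168160-41282530), a relative of BACE1 known mainly from pigment cells and pancreatic islets that can cut APP within the amyloid-beta sequence, lies on the same chromosome as APP. It measured 6.42, 6.03 and 4.94 CPM in DOX-negative and 7.501, 8.29 and 9.47 CPM in DOX-positive libraries, without overlap. Its mean count was 456.5 per library. The log2 fold change was 0.54 (SE 0.13, 95% interval 0.25 to 0.82), a 44.9% higher level, at percentile 96.0 of all tested genes. DOX-negative replicate 3 was the lowest, and without it the log2 fold change was 0.43. BACE2 was among the called genes, but no longer when replicate 2 or 3 of either group was left out. BACE2 made up 8.17 ± 0.834% of the beta-secretase TPM in DOX-negative and 9.90 ± 0.459% in DOX-positive libraries, so BACE1 remained the main beta-secretase transcript. The APP to BACE1 ratio of TPM was 21.2, 19.99 and 20.5 in DOX-negative and 11.8, 10.6 and 10.96 in DOX-positive libraries, a wide separation to which both the lower APP and the higher BACE1 contributed.

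**Figure D3:**
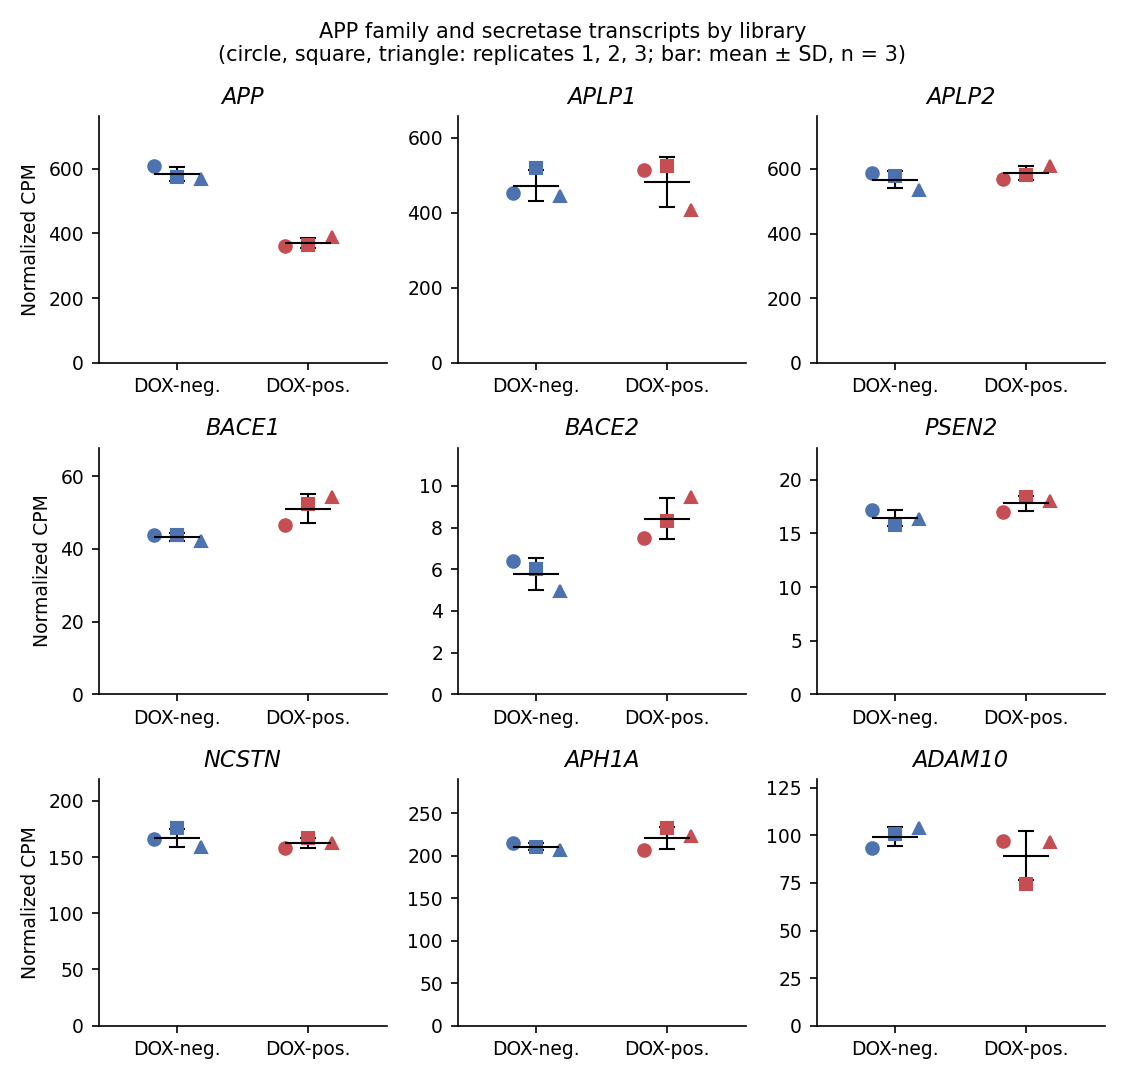
Normalized CPM of the 9 members by library, each panel with its own axis from 0. Circles, squares and triangles are replicates 1, 2 and 3, and bars give mean ± SD (n = 3). The groups separate for APP (584 against 371 CPM), BACE1 (42.1 to 43.9 against 46.5 to 54.2 CPM) and BACE2 (5.79 against 8.42 CPM) and overlap for the other 6 members.

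The gamma-secretase members stayed close to their DOX-negative levels. PSEN2 (chr1:226870616-226903668), the presenilin found mostly in late endosomes and lysosomes, measured 17.2, 15.8 and 16.4 CPM in DOX-negative and 17.04, 18.4 and 18.03 CPM in DOX-positive libraries. The groups overlapped, at a log2 fold change of 0.11 (SE 0.085, 95% interval -0.070 to 0.30). NCSTN (chr1:160343383-160358949) encodes nicastrin, which gates access of substrates to the complex. A pseudogene of NCSTN is annotated and could share reads with it. NCSTN measured 166, 176 and 159 CPM in DOX-negative and 158, 167 and 162 CPM in DOX-positive libraries. Its values were intermixed, at a log2 fold change of -0.040 (SE 0.070, 95% interval -0.19 to 0.11). APH1A (chr1:150265404-150269016) encodes the main scaffold subunit and measured 215, 209.9 and 207 CPM in DOX-negative and 207, 232 and 223 CPM in DOX-positive libraries. Its groups overlapped too, at a log2 fold change of 0.068 (SE 0.071, 95% interval -0.086 to 0.22).

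Of the subunits that are no members, PSENEN, which activates the presenilin by allowing its cleavage, had a log2 fold change of 0.060 (SE 0.088, edgeR, Benjamini-Hochberg adjusted p = 0.754). APH1B, which supplied only 2.61 ± 0.0841% of the summed APH1A and APH1B TPM in DOX-negative cells, had a log2 fold change of 0.13 (SE 0.094, edgeR, Benjamini-Hochberg adjusted p = 0.48). Neither passed the test. The APH1A share of that sum was 97.4 ± 0.0841% in DOX-negative and 97.3 ± 0.342% in DOX-positive libraries and overlapped, so APH1A supplied nearly all APH1 transcripts in both groups.

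ADAM10 (chr15:58588809-58749707) is the alpha-secretase member and also cuts Notch receptors and N-cadherin. It measured 93.6, 101 and 104 CPM in DOX-negative and 96.8, 74.5 and 96.7 CPM in DOX-positive libraries. DOX-positive replicate 2 stood apart below the other 5, which overlapped. The log2 fold change was -0.15 (SE 0.10, 95% interval -0.37 to 0.065), and without DOX-positive replicate 2 it was -0.036. That library also had the highest share of counts in non-protein-coding genes, 19.1% against 13.4 to 16.9% in the others, and the part of this in the ADAM10 value was not tested. ADAM10 supplied 63.1 ± 1.67% of the summed ADAM10 and ADAM17 TPM in DOX-negative and 59.3 ± 2.66% in DOX-positive libraries, with overlap. The ADAM10 to BACE1 ratio of TPM was 2.57, 2.76 and 2.96 in DOX-negative and 2.51, 1.72 and 2.15 in DOX-positive libraries, and the groups were separated only by the narrow gap to DOX-positive replicate 1.

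All 9 members passed the low-count filter. APP (lower) and BACE2 (higher) were among the called genes, at a Benjamini-Hochberg adjusted p under 0.05 in edgeR, which makes 2 of 9 members against 4.87% of all 17026 tested genes (2.91% higher and 1.96% lower). The groups did not overlap for 3 of 9 members against 28.1% of all tested genes. The choice of members used this contrast, so nothing is read from these counts. The median log2 fold change was 0.051 over the members and 0.00034 over all tested genes. Of the members, 6 had a higher and 3 a lower fitted level in DOX-positive cells. Only APP fell outside the middle 95% of all tested genes, which spanned log2 fold changes of -0.64 to 0.67. Spread within groups was largest for the low BACE2, with a biological coefficient of variation of 10.9%, and for APLP1 (9.88%) and ADAM10 (9.25%), and smallest for NCSTN (7.08%).

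**Figure D4:**
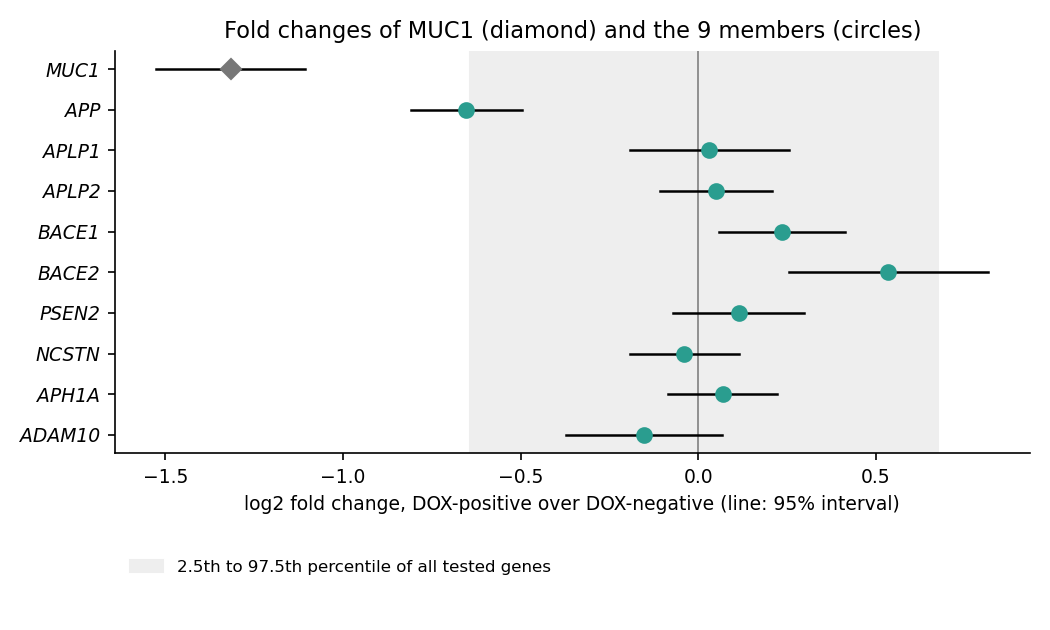
Fitted log2 fold change of DOX-positive over DOX-negative for MUC1 (diamond) and the members (circles), with 95% intervals as lines. The shaded band holds the middle 95% of all 17026 tested genes, -0.64 to 0.67. MUC1 lies at -1.32, APP at -0.65 and BACE2 at 0.54, and the intervals of 6 members cross 0.

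The profile of APP over the 6 libraries was compared with that of 10249 genes with a mean of at least 10 CPM, by Pearson correlation of log2 CPM. The 5 genes most like APP were AKR1C3, a steroid and prostaglandin reductase, at r = 0.997, ST13, an Hsp70-binding cochaperone, at 0.995, the membrane scaffold ANK2 at 0.993, the matrix protein MATN2 at 0.992 and the zinc finger gene ZNF532 at 0.991. All 5 were lower in DOX-positive libraries, with log2 fold changes of -0.37, -0.28, -0.46, -0.56 and -0.28. ZNF532 was not among the called genes (edgeR, Benjamini-Hochberg adjusted p = 0.058). The calls of AKR1C3 and ST13 were lost in 7 and 9 of 20 alternative fits. The 6 points fall into the 2 groups, so r carries mainly the group difference. Over deviations from the group means, r with APP was 0.919 for AKR1C3, 0.776 for ST13, 0.699 for ANK2, 0.747 for MATN2 and 0.454 for ZNF532. These 5 were picked by r over the same 6 libraries, which favours high values here as well, so nothing separate is read from them. Among the members, r with APP ran from -0.80 for BACE1 and BACE2 to 0.52 for ADAM10, and it was -0.19 for APLP1 and -0.34 for APLP2. MUC1 had an r of 0.963 with APP, and the APP to MUC1 ratio of TPM was 2.93 ± 0.166 in DOX-negative and 4.68 ± 0.803 in DOX-positive libraries, since MUC1 was lowered more than APP.

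Around the members, 90 other genes of APP processing were listed, of which 85 could be tested, 41 with a higher and 44 with a lower fitted level. Of the 85, 2 rose and 1 fell (3.53% called, against 4.87% of all genes), and their median log2 fold change was -0.0022. No call was made among the 7 tested ADAM sheddases and iRhoms, the 6 TspanC8 tetraspanins that escort ADAM10, the 9 cytoplasmic adaptors of APP or the 8 tested amyloid-beta-degrading enzymes. ADAM17, the inducible alpha-secretase, had a log2 fold change of 0.070 (SE 0.075, edgeR, Benjamini-Hochberg adjusted p = 0.655).

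VLDLR, a lipoprotein and reelin receptor that binds the same adaptors as APP, was the 1 of 19 sorting and trafficking genes that fell. It measured 64.1, 70.1 and 76.5 CPM in DOX-negative and 56.8, 47.9 and 44.9 CPM in DOX-positive libraries, without overlap, a log2 fold change of -0.49 (SE 0.099, edgeR, Benjamini-Hochberg adjusted p = 0.019). NGFR, the p75 neurotrophin receptor, was the 1 of 23 other gamma-secretase substrates that rose, from 1.44 ± 0.299 to 2.38 ± 0.186 CPM on a mean of 123 counts per library, a log2 fold change of 0.71 (SE 0.17, edgeR, Benjamini-Hochberg adjusted p = 0.0388). SCN3B, a sodium channel beta subunit, was the 1 of 11 tested other BACE1 substrates that rose, from 3.16 ± 0.484 to 4.98 ± 0.419 CPM, a log2 fold change of 0.65 (SE 0.14, edgeR, Benjamini-Hochberg adjusted p = 0.0231). All 3 calls were lost when DOX-negative replicate 2, DOX-negative replicate 3 or DOX-positive replicate 3 was left out, while each kept its direction. The calls of VLDLR and NGFR were also lost when DOX-positive replicate 2 was left out, and that of NGFR in limma-voom (Benjamini-Hochberg adjusted p = 0.0503). In the fits on deposited TPM none of the 3 genes was called, and NGFR and SCN3B could be tested only without the filter on low values. VLDLR overlaps VLDLR-AS1, which had a mean of 88.5 counts per library. The changes in NGFR and SCN3B transcripts say nothing of how much of either protein was cut.

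**Figure D5:**
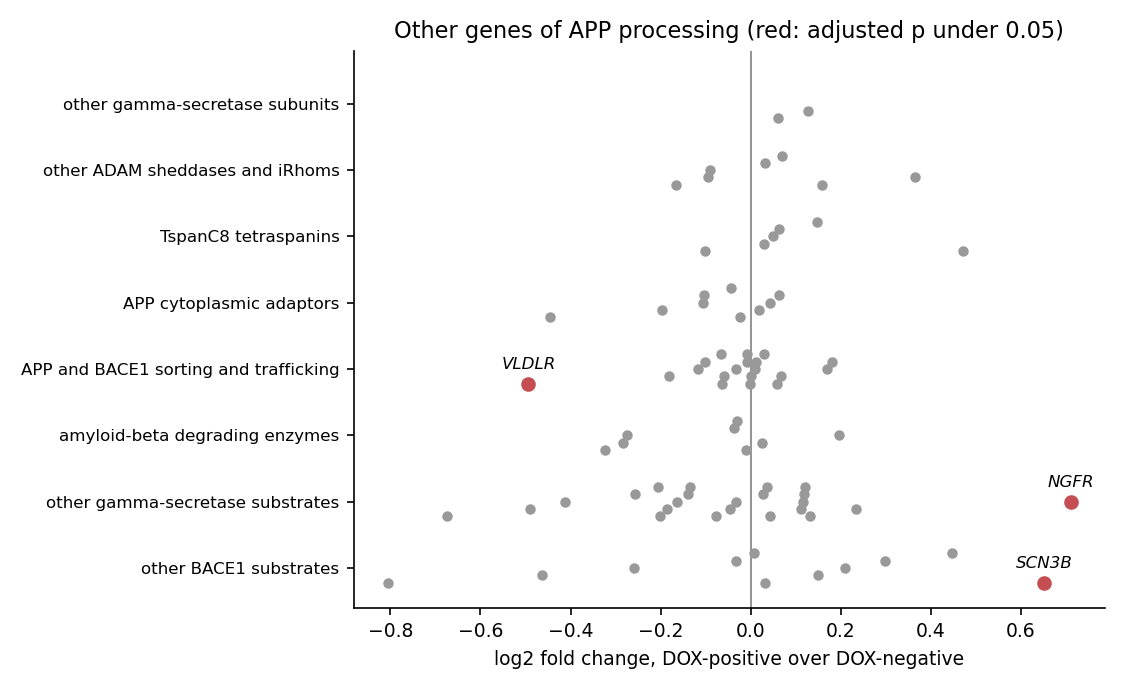
Log2 fold change of DOX-positive over DOX-negative for the tested genes of APP processing that are no members, with 1 row per list and 1 point per gene within a list. NRG1 is in both substrate lists and is shown in each. Called genes are in red, and 1 uncalled gene is left out. VLDLR at -0.49, NGFR at 0.71 and SCN3B at 0.65 are the called genes.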

How the data were processed

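RNA was measured in 6 libraries of 1 cell line, 3 per group, and the titles gave the groups. Library preparation was stranded and for mRNA, from column-purified total RNA, per the labels. RN7SK, an RNA without a poly(A) tail, held 21.2 to 27.1% of TPM, which goes against an mRNA library, so the library type is uncertain. The genotype and treatment fields of the labels were the same for all samples and did not give the groups. The submitters' processing notes name STAR, DESeq2 and the build GRCh38/hg38. Deposited by the authors were unnormalized counts for 28008 gene symbols and TPM for 25673 of them. TPM behaved as counts per gene length, rescaled per library. The strand setting of the counting is not given in the sources used here, and gene totals do not tell isoforms apart. All 6 columns of each table were matched by name, so 0 were unused.

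Counts were fitted with edgeR 4.0.16 in R 4.3.3 over both groups (filterByExpr, TMM, robust quasi-likelihood, no covariate), and p values were adjusted by Benjamini-Hochberg over 17026 genes, with calls at 0.05. In total 829 genes were called, 496 higher and 333 lower, and 3597 had an unadjusted p under 0.05. Deposited TPM was used for levels, shares and ratios. The members and the gene lists were chosen with earlier results of these data known. Named beside the members were MUC1, up to 4 called genes with the largest change per list, and the 5 genes most correlated with APP. PSENEN, APH1B, ADAM17 and the genes overlapping BACE1 were named for their role or position. Single values of some listed genes are not reported here.

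On simulated counts for 17026 genes, 92.5% of 200 genes changed by a log2 fold change of 1 were recovered in this comparison, and 6.57% of calls were false. The simulation gave every gene the same biological coefficient of variation, 9.58%, so these rates do not carry over to smaller changes or more variable genes. Within-group library pairs differed by more than sampling noise (chi-square per degree of freedom 15.6 to 95.1), so none was counted as a duplicate. Alternatives were other scaling factors and filters, DESeq2 1.42.0, limma-voom and limma-trend (limma 3.58.1) on log2(TPM + 1) or log2(TPM + 0.1), a replicate block and leaving out each library. A fit on TPM rescaled over protein-coding genes was added after the data were seen. Coordinates and start windows came from RefSeq (GRCh38.p14), which matched 91.6% of the symbols. The submitters' build has the same major version. The exons used to cut the printed windows came from the GENCODE basic set.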

Additional observations from a re-analysis of the deposited data

How the results depend on the processing

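The direction of each member's log2 fold change held in every alternative, except that APLP1 was at -0.015, -0.018 and -0.033 without DOX-negative replicate 3, DOX-positive replicate 1 and DOX-positive replicate 2. APP ranged from -0.69 to -0.62 over 20 alternatives and was called in 17, all but the 3 fits on deposited TPM. As APP was chosen for its fall in these same libraries, these calls are no separate support for that fall. BACE2 was called in 12 of the 18 alternatives that tested it. Its log2 fold change was 0.16 on log2(TPM + 1) without a filter, where the pseudocount shrinks low genes, and 0.43 to 0.62 when single libraries were left out. The call was lost there, on rescaled TPM, and when replicate 2 or 3 of either group was left out. The other 7 members were called in 0 of 20. Against 829 called genes, DESeq2 called 1355, log2(TPM + 1) with mean TPM of at least 1 called 31, log2(TPM + 0.1) called 35, log2(TPM + 1) without a filter called 11, and rescaled TPM called 472. Leaving out 1 library gave 58 to 1035 called genes, the lowest without DOX-negative replicate 3, then 127 without DOX-negative replicate 2, and 375 when DOX-positive replicate 3 was left out. Of the 2 members called, 0 were called in the 3 deposited-TPM fits, 1 on rescaled TPM and 1 to 2 when a library was left out. Of the 3 other pathway genes called, DESeq2 gave 7, the 3 deposited-TPM fits 0 and leaving out 1 library 0 to 7, with 0 without DOX-negative replicate 2, DOX-negative replicate 3 or DOX-positive replicate 3. The share of calls that were higher moved from 59.8% to 45.2 and 45.7% on deposited TPM with a filter and to 81.8% without one. The cause of these shifts was not tested beyond the shared TPM shift between libraries described above. With the replicate number as a block, 995 genes were called, 748 of them in common with the fit without it, and 5 pathway genes. Same-numbered libraries did not deviate together, with correlations of -0.555, 0.0307 and -0.0937 over 14256 genes, so the numbers were not read as pairs. Limma-voom called 2 pathway genes, with NGFR at an adjusted p of 0.0503. Among the called genes discussed, depth was lowest for NGFR, SCN3B and BACE2, at means of 123, 263 and 456.5 counts per library.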

Other observations

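Among the other BACE1 substrates, SEZ6 and SEZ6L, from a family of 3 neuronal surface proteins, had opposite differences that did not pass the edgeR test. They were chosen after their values were seen. SEZ6 measured 246, 263 and 220.3 CPM in DOX-negative and 299, 326 and 271 CPM in DOX-positive libraries, a log2 fold change of 0.30 (SE 0.089, edgeR, Benjamini-Hochberg adjusted p = 0.0769). SEZ6L measured 164, 175 and 156 CPM in DOX-negative and 144, 143 and 127 CPM in DOX-positive libraries, a log2 fold change of -0.26 (SE 0.078, edgeR, Benjamini-Hochberg adjusted p = 0.0786). Neither gene's groups overlapped, which held for 28.1% of all tested genes. The third family gene in the list, SEZ6L2, measured 303 ± 33.8 CPM in DOX-negative and 309.9 ± 21.0 CPM in DOX-positive libraries with overlap, a log2 fold change of 0.032 (SE 0.091, edgeR, Benjamini-Hochberg adjusted p = 0.883).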
